A study of Bos taurus with 6 samples.

Results

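SCD, FASN and HSD17B11 are 3 enzyme genes of lipid metabolism whose transcripts were measured in cultured cortex of the fetal bovine ovary. They were chosen by their place in the authors' deposited table of 158 probe sets that differed between insulin and control medium, so the difference between the media is given here as a description and not as a test. Each is named for 1 probe set, a group of short probes read out as 1 signal, among the 24128 on an Affymetrix bovine array: Bt.4798.1.S2_at for SCD, Bt.22854.2.S1_at for FASN and Bt.11993.1.S1_at for HSD17B11. The table lists the last one under the symbol MGC137132, and the name HSD17B11 was read from a row title that says only that the sequence is similar to this enzyme. Only 1 further probe set on the array shares a cluster number (the digits after "Bt.") with any of the 3, namely Bt.22854.1.S1_at, which has the number of FASN and no name of its own here. Probe sets for these genes under other cluster numbers were not looked for, as the rest of the array has no names here.

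The cortical pieces came from bovine fetal ovaries collected at slaughter and were cultured for 2 days. The 3 control arrays come from pieces in TS+ medium, which holds transferrin, selenous acid, BSA and linoleic acid. The 3 insulin arrays come from pieces in ITS+ medium, described only as medium with insulin. The series description states that the 2 media were used to obtain pieces enriched for primordial follicles (control) or primary follicles (insulin), so a direct effect of insulin and a change in follicle stage cannot be told apart. The labels do not say whether the replicates are separate fetuses or cultures, so the spread between arrays may be technical. None of 45 marker genes of oocytes, granulosa, theca, stroma and other cells has a named probe set here, so the labelled tissue was not checked against its markers. In RNA of whole pieces, fewer cells of a type and less RNA per cell cannot be told apart.

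Fatty acid synthase, encoded by FASN, is the cytosolic enzyme that builds saturated fatty acids, mainly palmitate, from acetyl and malonyl units. Stearoyl-CoA desaturase, encoded by SCD, is an iron enzyme of the endoplasmic reticulum that puts a double bond into saturated fatty acyl-CoA and so makes oleate and palmitoleate. In liver and adipose tissue, insulin is known to raise transcription of both genes through the transcription factor SREBP-1c. HSD17B11 encodes a short-chain dehydrogenase that is found on lipid droplets and in the endoplasmic reticulum and oxidises steroids in vitro. Bovine oocytes are rich in lipid droplets, which store triglycerides.

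With insulin, SCD was about 4-fold and FASN, by its named probe set, about 2-fold higher than in control medium. The other probe set with the cluster number of FASN had a ratio of 1.05. HSD17B11 was lower by more than 2-fold. The signal of SCD was 869, 784 and 810 on control arrays 1, 2 and 3 and 3513, 3138 and 3651 on insulin arrays 1, 2 and 3. Every insulin array was thus well above every control array, a separation upwards that 12.3% of all probe sets tested showed. The lowest insulin value was 3.61 times the highest control value. The means were 821 ± 43.7 and 3434 ± 266 (SD, n = 3 each), a ratio of 4.18. On the log2(signal + 16) scale the difference was 2.04 with a limma SE of 0.12, which is 18.1 times the larger of the SDs of the groups.

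FASN, which supplies the saturated fatty acids that SCD acts on, had signals of 1377, 1503 and 1622 on control arrays 1, 2 and 3. On insulin arrays 1, 2 and 3 its signals were 2931, 2889 and 3021. The insulin arrays lay close together, with a coefficient of variation of 2.27% against 8.14% among controls. None overlapped a control array, as for 12.3% of all probe sets tested. The lowest insulin value was 1.78 times the highest control value. The means of 1501 ± 122 and 2947 ± 67.0 (SD, n = 3 each) gave a ratio of 1.96, and the log2 difference was 0.97 with a limma SE of 0.12.

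HSD17B11 moved the other way. Its signals were 3267, 3030 and 2649 on control arrays 1, 2 and 3, and 1246, 1477 and 1137 on insulin arrays 1, 2 and 3. The groups did not overlap, and 11.9% of all probe sets tested showed such a separation downwards. The lowest control value was 1.79 times the highest insulin value, but the arrays of each group were more widely spread than for SCD or FASN. The coefficient of variation was 10.5% among controls and 13.5% with insulin. Mean signals were 2982 ± 312 and 1287 ± 173 (SD, n = 3 each), so that control was 2.32 times insulin, and the log2 difference was -1.21 with a limma SE of 0.15.

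**Figure D1:**
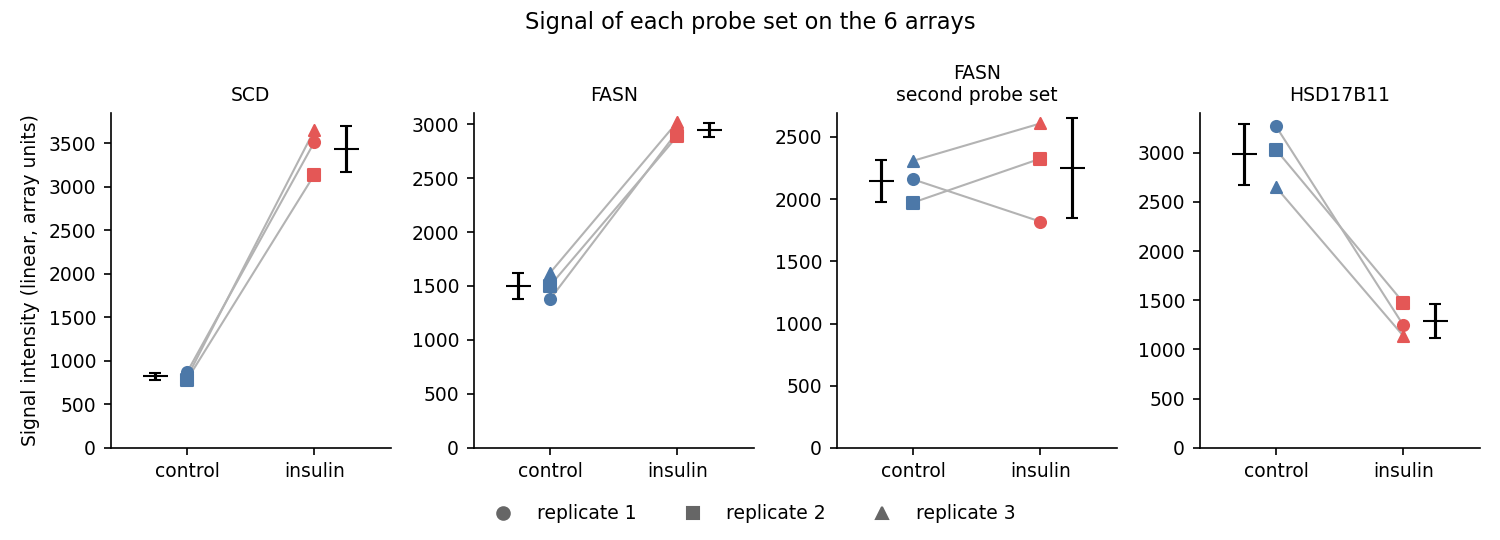
Signal intensity (linear array units, axes from 0) of the SCD, FASN and HSD17B11 probe sets and of the second probe set with the cluster number of FASN, on 3 control arrays (blue) and 3 insulin arrays (red). Marker shapes and grey lines join arrays of the same replicate number, and black bars give the mean and SD. SCD, FASN and HSD17B11 separate the media without overlap, as 12.3% of probe sets tested do upwards and 11.9% downwards. The second FASN probe set does not separate them.

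Each gene changed in the same direction in all 3 pairs of arrays with the same replicate number. As the groups did not overlap for any of these genes, every other pairing would give that direction too. SCD with insulin was 4.04, 4.01 and 4.51 times its control in numbers 1, 2 and 3. For FASN the ratios were 2.13, 1.92 and 1.86. For HSD17B11, control was 2.62, 2.05 and 2.33 times insulin. The number with the largest change was therefore 3 for SCD but 1 for FASN and HSD17B11, and no number had the largest change in all 3 genes. The change of SCD exceeded that of FASN in each number, by 0.92 to 1.26 on the log2 scale (mean 1.07, SD 0.17, n = 3 numbers).

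The second probe set with the cluster number of FASN did not follow the first. Its signals were 2159, 1973 and 2308 on control arrays 1, 2 and 3 and 1820, 2326 and 2609 on insulin arrays 1, 2 and 3. The groups overlapped, and insulin was lower than control in number 1 and higher in numbers 2 and 3. The means were 2147 ± 168 and 2251 ± 400 (SD, n = 3 each), the log2 difference was 0.06 with a limma SE of 0.16, and the probe set did not pass the threshold over the whole array. The log2 difference of the named FASN probe set was larger by 0.91 (SD 0.36, n = 3 numbers), with single numbers between 0.70 and 1.33. Both probe sets were bright, with lowest signals of 11.3 and 14.9 times the level of the filter on dim probe sets. Whether both probe sets detect the same FASN transcript was not tested, because the sequences of their probes were not used here. SCD and HSD17B11 have no further probe set with their cluster number, so each of these changes is given from 1 probe set.

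Against the whole array, all 3 changes were large, but the genes were picked for their difference on these same arrays. The median absolute log2 difference over the 14410 probe sets tested was 0.17, its 95th percentile was 0.66, and the median signed difference was -0.00111. Only 5 of the 14410 probe sets had a larger rise than SCD, 105 had a larger rise than FASN and 77 had a larger fall than HSD17B11. At a limma adjusted p of 0.05, 3 of the 3 genes passed, where 2.26% of all probe sets were called (1.18% higher and 1.08% lower with insulin). With the replicate number as a block, 6.36% were called and the 3 genes were again among them. As the genes were selected on this contrast, nothing is read from these sizes, ranks or counts. A complete separation of the arrays of both media, which SCD and FASN show upwards and HSD17B11 downwards, was itself common, at 12.3% of probe sets upwards and 11.9% downwards.

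**Figure D2:**
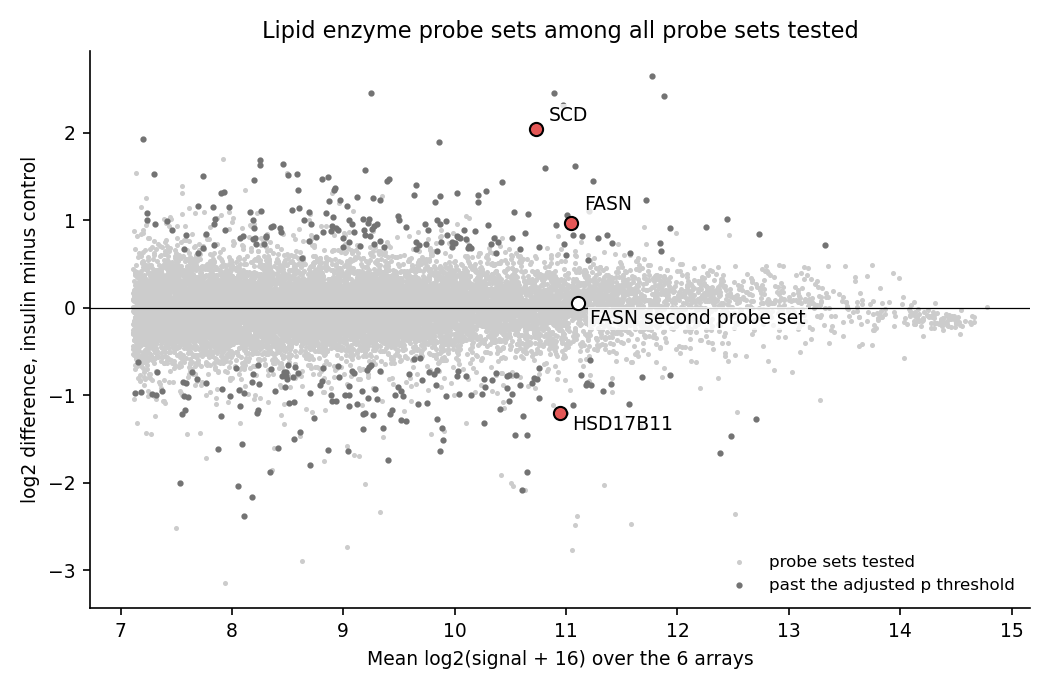
log2 difference between insulin and control (vertical axis) against the mean log2(signal + 16) over the 6 arrays (horizontal axis) for the 14410 probe sets tested, with those past the limma threshold in dark grey. SCD, FASN and HSD17B11 (red) lie at 2.04, 0.97 and -1.21, and the second FASN probe set (white) at 0.06.

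The calls of FASN and HSD17B11 were lost in several settings, and that of SCD in none. SCD passed in all 16 alternative settings run, FASN in 9 and HSD17B11 in 10. As the genes were picked for a difference on these same arrays, passing again is no support for any of them. Only SCD passed without control replicate 2, control replicate 3, insulin replicate 1 or insulin replicate 3, when dim probe sets were kept in the test, or when the variance was not moderated (an ordinary t statistic). FASN also failed to pass without insulin replicate 2. The number of probe sets called over the whole array fell at the same time. It went from 326 to between 3 and 59 when any of these 5 arrays was left out. It was 2 of 24016 when dim probe sets were kept and 12 of 14410 by an ordinary t statistic. All 16 settings gave log2 differences between 1.98 and 2.11 for SCD and between 0.91 and 1.03 for FASN. For HSD17B11 they lay between -1.31 and -1.12. These narrow ranges are partly built in, as the filter, variance and block settings cannot change the difference and all settings reuse the same arrays. For the second FASN probe set the range was -0.06 to 0.20, and its sign turned without control replicate 2 and without insulin replicate 3.

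**Figure D3:**
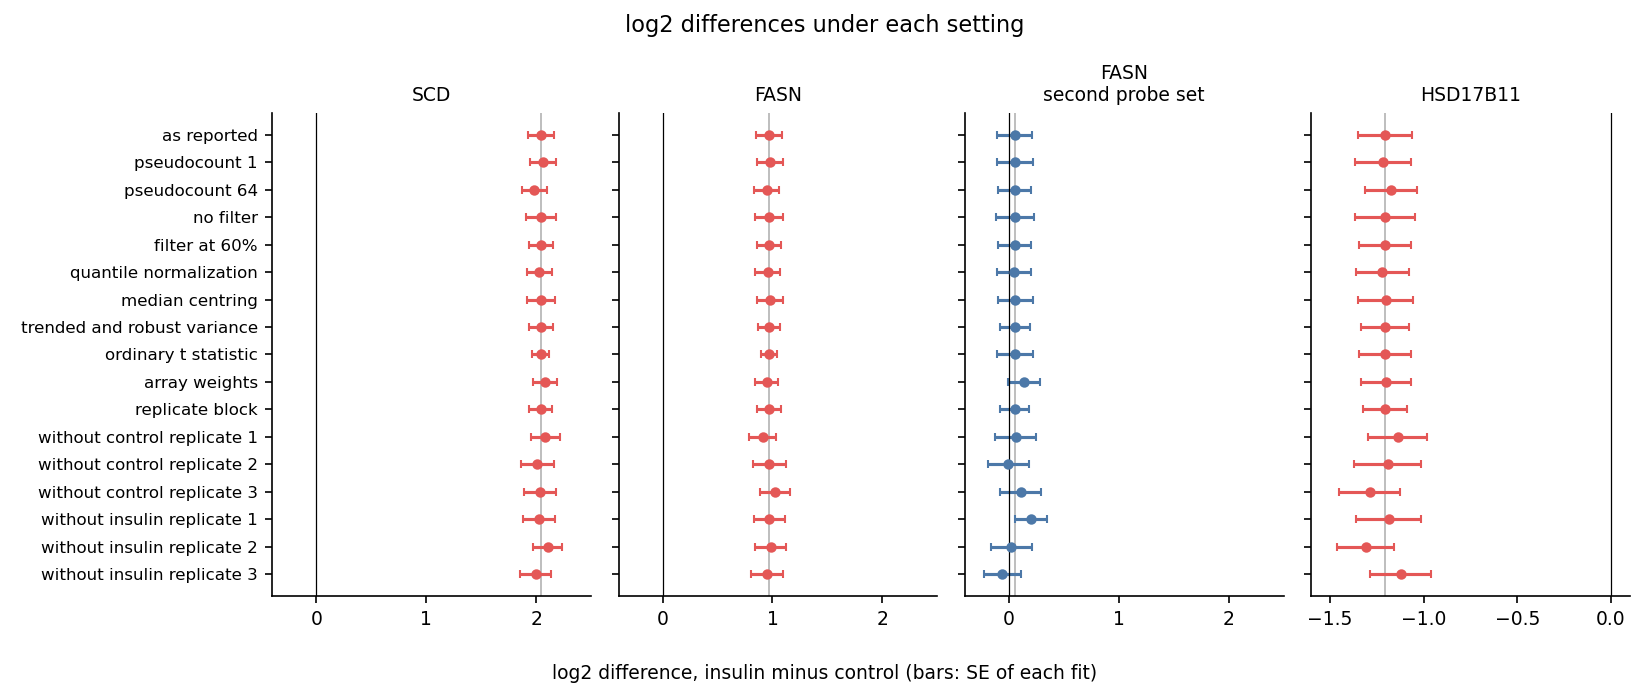
log2 difference between insulin and control under the reported fit and 16 alternative settings (rows), with bars for the SE of each fit. Values for SCD, FASN and HSD17B11 stay on one side of 0 in every row, and those of the second FASN probe set lie on both sides of it. The filter, variance and block rows cannot differ from the reported value.

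In the authors' deposited table SCD has the highest log2 ratio of all 158 rows (2.02, a fold of 4.06), and its p-value of 1.29e-05 is the fifth smallest. FASN is listed there with a log2 ratio of 0.96, a fold of 1.95 and a p-value of 0.000155, at rank 25 of the 90 higher rows. HSD17B11 is listed in the authors' deposited table with a log2 ratio of -1.20, a fold of 0.437 and a p-value of 0.000998. Its ratio is the fourth lowest of the 68 lower rows, while its p-value is the largest in the table, whose rows all lie under 0.001. How the authors selected the rows is not stated, and the table holds no row with a larger p-value to set beside it.

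The annotation that the authors' deposited table carries gives SCD and FASN the fatty acid biosynthesis term of the Gene Ontology, and no other row has it. The 3 genes were put together as enzymes of lipid metabolism, so lipid terms among them are no separate support. The wider lipid biosynthesis term is carried by 5 rows of 4 genes, which are SCD, FASN, CYP51A1, a demethylase of the cholesterol pathway, and FDFT1, the squalene synthase, with 2 probe sets. All 5 rows are among the 90 higher ones. Only 52 of the 158 rows have any biological process term, and 36 of those are higher rows, so a missing term says little. FASN is the only row placed in the KEGG insulin signaling pathway, and only 7 of the 158 rows have any KEGG pathway. SCD and EBP, the sterol isomerase, are the only rows given an endoplasmic reticulum term. HSD17B11 has no Gene Ontology term in the table, against 19 for FASN and 9 for SCD. In RefSeq's gene order on ARS-UCD2.0, HSD17B11 lies next to HSD17B13, a gene of the same enzyme family, FASN lies between CCDC57 and DUS1L, and SCD lies next to WNT8B. None of these neighbours has a named probe set here.

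Of 139 genes on 7 lists of lipid metabolism, only 12 could be matched to a named probe set, all through the authors' table, so the counts that follow describe rows already picked for their change. Of the 28 genes of fatty acid synthesis and desaturation, SCD and FASN were the 2 with a name, and enzymes on either side of them, such as ACLY, ACACA, ELOVL6 and FADS2, were not analysed here. Of the 10 genes of SREBP regulation 1 was named, INSIG1, which holds the SREBP activating complex in the endoplasmic reticulum when sterols are plentiful. Its control mean was 582 ± 67.5 and its insulin mean 1358 ± 82.2 (SD, n = 3 each), and its log2 difference was 1.20. Of the 21 genes of the HSD17B and related dehydrogenase list, HSD17B11 alone was named. The lists of fatty acid uptake and binding (15 genes), lipid droplets and lipolysis (28) and fatty acid oxidation (17) had no named gene, so the lipid droplet genes could not be set beside HSD17B11.

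Of the 24 genes of cholesterol synthesis, 9 were named by 10 probe sets, INSIG1 being counted again here. All 10 passed the limma threshold of 0.05 in the higher direction, where 1.18% of all 14410 probe sets did. As these rows were picked for their change, nothing is read from that count. When single arrays were left out, 0 to 7 of them passed, and 3 to 242 probe sets over the whole array. Their log2 differences ran from 0.74 to 1.20 with a median of 0.95. INSIG1 had the highest value, followed by SQLE, the squalene epoxidase, at 1.09. The named FASN probe set, at 0.97, lay within that range, and SCD, at 2.04, lay above all of it. The second probe set with the cluster number of FASN, at 0.06, lay below it. HSD17B11 was the only one of the 13 named lipid list probe sets that was lower with insulin.

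**Figure D4:**
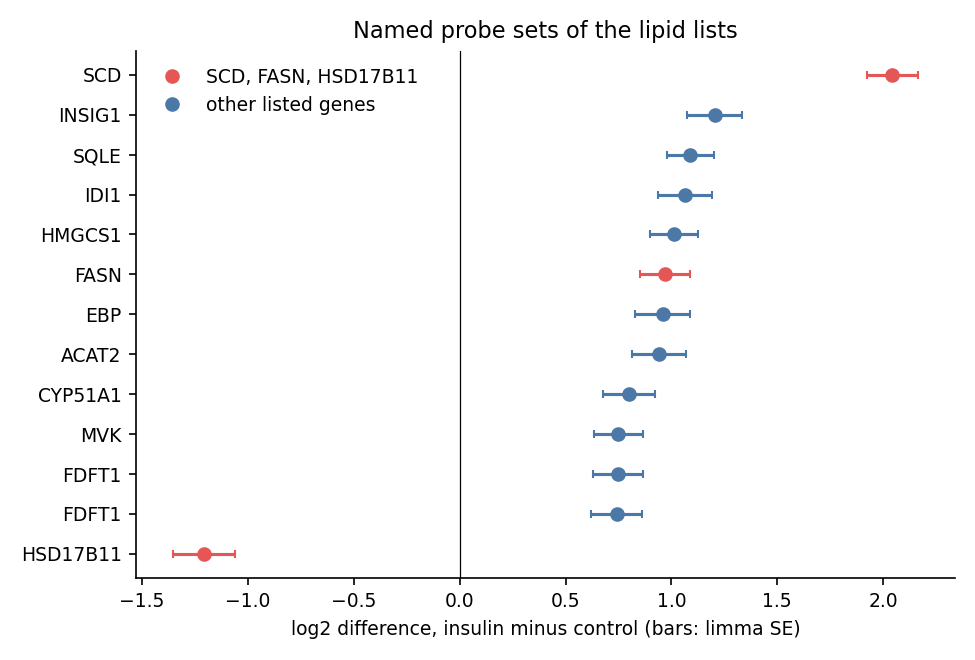
log2 difference between insulin and control (horizontal axis) with its limma SE (bars) for the 13 named probe sets of the lipid lists, with SCD, FASN and HSD17B11 in red. FASN at 0.97 sits among the cholesterol synthesis genes, SCD at 2.04 is above them and HSD17B11 at -1.21 is the only value under 0.

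The genes with the most similar pattern were sought among 87 named genes, as those whose log2 signals, each taken relative to its control mean, had the smallest root mean square difference from the gene of interest over the 6 arrays. For FASN these were EBP, ACAT2, which makes acetoacetyl-CoA, and DTYMK, a kinase of thymidine nucleotide synthesis, at 0.05, 0.06 and 0.07 log2 units. They were also the 3 nearest of all other probe sets tested. EBP went from 595 ± 68.0 to 1168 ± 59.5 and ACAT2 from 896 ± 84.2 to 1731 ± 127 (SD, n = 3 each). Like FASN, EBP, ACAT2 and DTYMK were high in control replicate 3 among the controls.

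For SCD the nearest named genes were PHGDH, the first enzyme of serine synthesis, SLC52A3, a riboflavin transporter, and PSAT1, which follows PHGDH in serine synthesis. Their distances were 0.23, 0.38 and 0.46 log2 units, larger than those for FASN. The nearest of all probe sets was that of PHGDH, with a control mean of 472 ± 101, an insulin mean of 1771 ± 76.1 (SD, n = 3 each) and a log2 difference of 1.89. For HSD17B11 the nearest named genes were RPL5, a ribosomal protein, SAT1, an enzyme of polyamine breakdown, and MTURN, at 0.14, 0.20 and 0.22 log2 units. Between 4 and 24 other probe sets, most of them unnamed, were nearer than these. MTURN was dim, with a mean signal of 215 in control and 103 with insulin, the latter under the filter level of 122. The RPL5 probe set had a control mean of 2006 ± 50.5, an insulin mean of 892 ± 51.1 (SD, n = 3 each) and a log2 difference of -1.16. The arrays share their RNA within each sample, and the named genes come from a table picked for change, and a distance of this kind is set mainly by the size of the change.

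**Figure D5:**
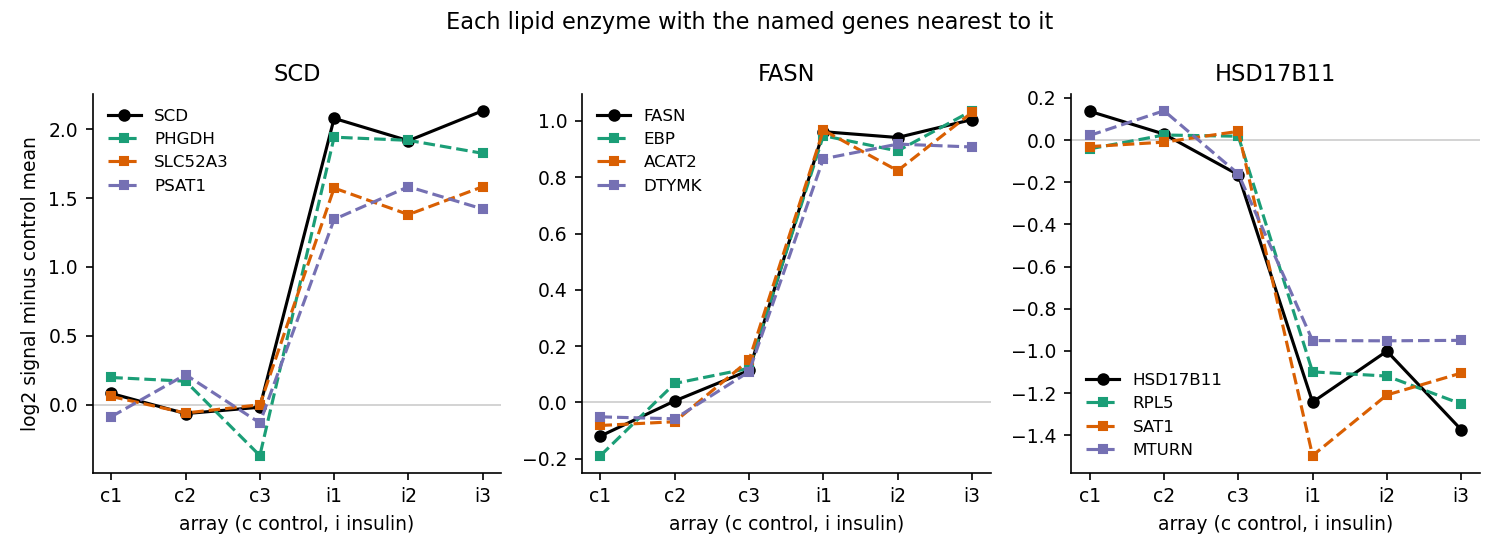
log2 signal relative to the control mean (vertical axis) on control arrays c1 to c3 and insulin arrays i1 to i3 for SCD, FASN and HSD17B11 (black) and the 3 named genes nearest to each (colours); lines only guide the eye. The genes nearest to FASN stay within 0.07 log2 units of it on average, and those nearest to SCD within 0.46.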

How the data were processed

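RNA of 6 samples of cultured cortex (3 control, 3 insulin) was hybridised to Affymetrix bovine arrays as biotin-labelled complementary RNA, per the labels' protocols. The deposited value table holds a linear signal intensity for each probe set on each array, scaled by the authors beforehand. The submitters' processing notes name GCOS, the Affymetrix software, whose settings are not given. Array medians lay between 196 and 212 and upper quartiles between 621 and 633. The number of arrays limits the precision.

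In the authors' deposited table, per the file headers, the log2 column and the fold column set insulin over control. The p-value and t score columns were deposited by the authors without a stated test. Its 9 per-array columns were left out, as their names match no single sample, those for day 0 included. Its 158 rows gave 94 named ones, 32 by symbol, 35 by gene number, 9 by synonym and 18 by title.

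Signals were analysed as log2(signal + 16), which understates changes of dim probe sets. The 112 control probe sets and the 40% with the lowest mean log2 signal (filter at a signal of 122) were left out. The media were compared over 14410 probe sets with limma 3.58.1 in R 4.3.3 (lmFit, eBayes, Benjamini-Hochberg, threshold 0.05) without a block, and the fit was tested on simulated data. Other work used Python 3.11.15, pandas 2.3.3 and matplotlib 3.10.9.

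Deviations from the group means correlated at 0.56, 0.31 and 0.42 between control and insulin arrays of numbers 1, 2 and 3, and at -0.41 to 0.13 between different numbers. The numbers were therefore also used as a block, though the labels do not say what they share. Each group was centred on its own mean, so positive values within a number make those between numbers negative on balance. The contrast between these correlations is thus partly built in. Genes, lists and alternatives were chosen with earlier results of these data known. Named genes are the 3 enzymes, every named gene of the lists, and the 3 named genes nearest in pattern to each enzyme. Promoter motifs were planned and not analysed here.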

Additional observations from a re-analysis of the deposited data

How the results depend on the processing

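The log2 differences of SCD, FASN and HSD17B11 kept their sign in all 16 alternatives and moved by less than the larger of the SDs of the 2 groups. Much of this is built in, so it is no support. The filter, variance and block settings cannot change the difference itself. As the groups do not overlap, leaving out 1 array cannot turn the sign, and it moves a mean of 3 by less than the SD of its group. FASN moved from 0.97 to 0.91 without control replicate 1 and to 1.03 without control replicate 3. Both moves are more than its smaller SD, that of the insulin arrays (0.032). The count of probe sets called over the whole array was 326 and depended on the setting: 2 when nothing was filtered, 12 for an ordinary t statistic, 542 for a trended and robust variance, 605 under array weights and 916 under the replicate block, and 3 to 242 when single arrays were left out (3 to 59 for any array but control replicate 1). Of SCD, FASN and HSD17B11, 1 (SCD) passed when nothing was filtered and 1 (SCD) by an ordinary t statistic, 1 to 3 when single arrays were left out, and 3 with the replicate block, which lost no call among them. Of the 10 cholesterol synthesis probe sets, 0 passed limma when nothing was filtered, 1 passed by an ordinary t statistic and 0 to 7 passed when single arrays were left out, with 0 for control replicate 3; in each of these fits 10 of the 10 had an unadjusted p under 0.05, which is no support, since these rows are named only through a table of small p-values on the same arrays. The ordinary t statistic uses fewer degrees of freedom, and the fits without an array use fewer samples. Without the filter 24016 probe sets entered the adjustment, and the cause of the lower count was not tested further. All arrays had SCD, FASN and HSD17B11 at 6.40 times the filter level or more.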

Other observations

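A row of the authors' deposited table outside the lists was titled as similar to CYP4V2, a hydroxylase of fatty acids, and was picked after its values were seen. Its signals were 2497, 2052 and 2241 on control arrays 1, 2 and 3, and 1344, 1235 and 1240 on insulin arrays 1, 2 and 3, so that it was lower with insulin, as HSD17B11 was. Its means were 2263 ± 223 and 1273 ± 61.3 (SD, n = 3 each), and its log2 difference was -0.82 with an SE of 0.12. MGC128806, an uncharacterised row that carries a lipid metabolism term in the same table, differed by 0.30 on the log2 scale (SE 0.11) and did not pass the limma threshold. ATP5MC1, another row outside the lists with a lipid-related word in its annotation, was higher with insulin. Its log2 difference was 0.82 (SE 0.12), and it passed that threshold.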
